A study of Homo sapiens with 14 samples.

Results

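The sites described here are KLF4 peaks at gene starts of untreated Nrf2 KO BEAS-2B cells that had no counterpart in the peak lists of WT cells. A site was an interval of the Nrf2 KO control KLF4 peak list, on chromosomes 1 to 22 and X, with its summit within 2000 bp of a gene start (TSS) and without a single base in common with any interval of the WT As3+ or the WT control list. There were 14911 such intervals, called unshared sites below, among 26075 Nrf2 KO control intervals at gene starts and 76521 in the whole list, which is 57.2% (56.6% to 57.8%) and 19.5% of them. The sites were chosen by their presence in 1 list and absence from the others, so their number and their lower strength describe the choice and are given without a test. The sites they are set beside are the 11160 Nrf2 KO control promoter intervals that overlapped a WT As3+ interval, called shared sites. Only 4 further promoter intervals overlapped the WT control list alone, and they belong to neither set.

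BEAS-2B is an established line of human bronchial epithelial cells. The groups were WT cells, labelled as of normal genotype, and cells with Nrf2 knockout, each as an untreated control or after 1 µM As3+ (trivalent arsenic) for 6 h, with 1 KLF4 ChIP-seq library per condition. The knockout was made by CRISPR-Cas9 with guides against the Nrf2 gene, and colonies with or without Nrf2 protein were taken as WT or KO. How many colonies stand behind a library is not given in the sources used here, so a property of 1 colony and an effect of the knockout cannot be told apart, and neither can a library effect. Absence from WT was decided almost wholly by the WT As3+ list, which differs from the Nrf2 KO control list in treatment as well as genotype. Effects of As3+ and of the knockout therefore cannot be told apart either. The 4 lists held 107268 intervals on these chromosomes, with 29866 in WT As3+, 751 in WT control and 130 in Nrf2 KO As3+ cells. Shares carry exact Clopper-Pearson 95% intervals, which cover counting error only.

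KLF4 is a zinc finger transcription factor that binds GC-rich and CACCC-type DNA, maintains epithelial differentiation and is 1 of the factors used to reprogramme cells to pluripotency. Nrf2, encoded by NFE2L2, is the main activator of antioxidant genes and is stabilised when arsenic disables its inhibitor KEAP1. Many promoters lie in CpG islands, stretches that kept their CG dinucleotides and are often open in most cell types.

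Among the strongest unshared sites by −log10 p, 4 whose central bases touch no annotated exon are shown first, since they give the plainest view of the DNA under these peaks. Each is written 5′ to 3′ on the strand of the gene with the nearest TSS, and here and in the later sequences capitals mark any of the 13 motif words counted further on.
ZCCHC24: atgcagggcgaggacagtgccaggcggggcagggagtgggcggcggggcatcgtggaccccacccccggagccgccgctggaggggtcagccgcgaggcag
MAST4-AS1: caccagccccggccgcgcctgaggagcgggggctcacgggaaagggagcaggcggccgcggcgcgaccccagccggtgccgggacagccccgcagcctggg
PPP4R3A: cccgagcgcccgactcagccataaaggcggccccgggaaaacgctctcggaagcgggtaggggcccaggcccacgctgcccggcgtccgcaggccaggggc
IL17REL: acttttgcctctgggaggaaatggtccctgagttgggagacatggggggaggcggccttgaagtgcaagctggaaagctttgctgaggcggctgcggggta
They lie on GRCh38 at chr10:79445739-79445839 (ZCCHC24, minus strand, 165 bp upstream of the TSS), chr5:67004164-67004264 (MAST4-AS1, a long non-coding RNA gene, minus strand, 134 bp upstream), chr14:91510713-91510813 (PPP4R3A, minus strand, 209 bp upstream) and chr22:50011421-50011521 (IL17REL, minus strand, 1294 bp downstream, in an intron). The first 3 sequences had GC contents of 75.2% to 81.2% and 10 to 13 CG dinucleotides each, while the IL17REL sequence had a GC content of 59.4% and 3 CG dinucleotides. None of the 13 words was found in these sequences, the KLF word included, which is CCACACCC or CCACGCCC read on either strand.

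For contrast, 3 of the strongest shared sites, picked in the same way, were these.
NBAS: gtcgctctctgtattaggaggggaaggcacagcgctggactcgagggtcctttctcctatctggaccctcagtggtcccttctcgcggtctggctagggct
DDX1: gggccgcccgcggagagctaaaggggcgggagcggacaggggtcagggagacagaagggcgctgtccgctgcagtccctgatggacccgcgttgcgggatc
LEMD2: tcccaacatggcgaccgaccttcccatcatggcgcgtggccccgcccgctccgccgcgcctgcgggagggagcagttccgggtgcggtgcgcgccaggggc
They lie at chr2:15560773-15560873 (NBAS, minus strand, 517 bp downstream of the TSS), chr2:15592007-15592107 (DDX1, plus strand, 879 bp downstream) and chr6:33789140-33789240 (LEMD2, minus strand, 60 bp upstream). Their folds over background were 44.3, 32.4 and 20.2, against 11.4, 11.7, 9.69 and 11.2 for the 4 unshared sites in the order printed above. These sequences held no word of the list either, and the LEMD2 sequence had 14 CG dinucleotides at a GC content of 76.2%.

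The unshared sites were weak peaks. Their median fold enrichment over the local background was 4.69 (quartiles 4.02 and 5.36, highest 12.6), against 5.65 at shared sites (quartiles 4.68 and 6.86, highest 47.6). The fold and the p of a peak together give the number of fragments over its summit, and the median was 7 fragments (quartiles 6 and 9, highest 32) at unshared and 11 (quartiles 9 and 14, highest 93) at shared sites. The background expected at the same places was 0.749 fragments at unshared and 1.10 at shared sites, and the median widths were 270 and 479 bp. In the fold a constant is added to both fragments and background, so it is smaller than their plain ratio. Intervals of 1000 bp or more made up 0.771% of unshared sites (0.637% to 0.925%) and 10.4% of shared sites (9.85% to 11%). A −log10 q of at least 5 was reached by 2967 unshared sites, or 19.9% (19.3% to 20.5%), and by 53.7% of the shared sites.

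Absence from the WT lists followed the number of fragments closely. Among promoter intervals with 4 to 5 fragments 90.0% were unshared (88.6% to 91.3%), with 6 to 7 fragments 82.5%, with 8 to 9 fragments 63.0%, with 10 to 12 fragments 39.5% and with 13 to 19 fragments 19.5%. Of the 428 promoter intervals with 20 or more fragments, 17 were unshared, a share of 3.97% (2.33% to 6.28%). Fragment numbers are on a scale of each library, with a lowest background of 0.491 fragments and a smallest peak of 4 fragments in the Nrf2 KO control list, 0.757 and 5 in WT As3+ and 1.90 and 10 in WT control. The lowest listed folds were 2.43, 2.05 and 1.65 in the same order. An unshared site is one that was not listed in WT cells, which does not show that KLF4 was absent there.

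**Figure D1:**
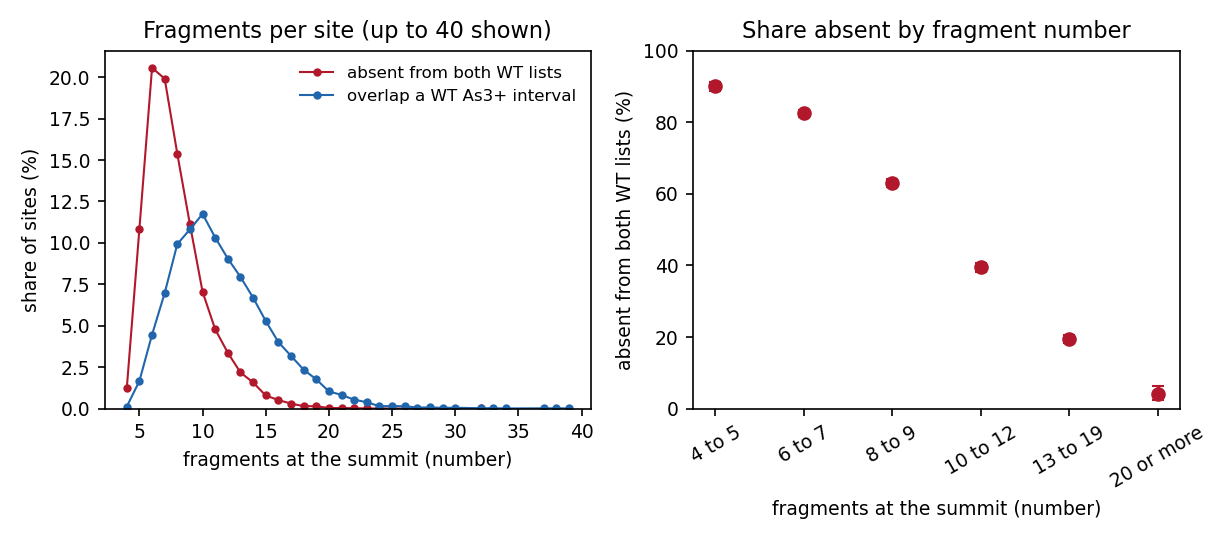
Left, share of sites (%) against the number of fragments at the summit for 14911 unshared (red) and 11160 shared (blue) promoter sites; right, share of Nrf2 KO control promoter intervals that were unshared (%) by fragment number, with exact 95% intervals. Unshared sites peak at 6 fragments, and the unshared share falls from 90.0% to 3.97% across the fragment classes.

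The strongest unshared site lay at LIPT2, which encodes an enzyme of lipoic acid synthesis. It ran from 74492707 to 74493849 on chromosome 11 with its summit 49 bp downstream of the TSS in an exon, and had 32 fragments over a background of 1.62, a fold of 12.6. The nearest WT As3+ interval was 202999 bp away. LRRC51, a leucine-rich repeat gene on chromosome 11, had 23 fragments and a fold of 11.4 from 72080267 to 72080584, 53 bp downstream of its TSS in an exon. UNC119, a lipid-binding trafficking protein gene on chromosome 17, had a fold of 12.1 with 17 fragments over the lowest background of the library, 0.491.

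Of the 15 strongest sites, 13 lay within 2 kb of a protein-coding TSS and the other 2 at long non-coding RNA genes. GNMT, the glycine N-methyltransferase of methionine metabolism, and SLC45A4, a solute carrier, each had 19 fragments and a fold of 10.8. WASL, which encodes the actin regulator N-WASP, had 22 fragments and a fold of 9.69, and the nearest WT As3+ interval lay 101089 bp away. TXNRD3, a thioredoxin reductase, had 17 fragments and a fold of 10.6, and ITGA9, an integrin chain, had 16 and a fold of 10.8. At ZCCHC24, PPP4R3A, IL17REL and RAB22A a WT summit was present at the same TSS, and the gap between the intervals was 628, 623, 591 and 45 bp. The strongest sites thus divide into gene starts without any WT summit within 2 kb and gene starts where a WT interval lies beside the site.

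This second arrangement was common. A WT As3+ summit lay within 2 kb of the same TSS for 6055 unshared sites, or 40.6% (39.8% to 41.4%). Each of these sites was paired with the WT As3+ summit closest to the TSS. In 63.4% of these pairs (62.1% to 64.6%) the unshared site was farther from the TSS than that summit, with median distances of 761 and 410 bp. Taking the closest WT As3+ summit but every unshared site favours this order, so the pairs do not show an outward position. The other sites had no WT As3+ summit at the TSS and lay at a median of 573 bp. Both kinds were of like strength, with median folds of 4.66 and 4.69 and median numbers of 8 and 7 fragments. To the nearest WT As3+ interval the median gap over all unshared sites was 4258 bp, with 20.9% of sites within 500 bp, 42.0% within 2000 bp and 90.6% within 100000 bp.

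The limits of the rule cut through a continuum. There were 225 unshared sites with the summit 1951 to 2000 bp from a TSS, with a median fold of 4.45, and 160 intervals absent from WT with the summit 2001 to 2050 bp away, with a median fold of 4.51. Likewise, 313 unshared sites were less than 50 bp from a WT As3+ interval and 429 shared sites overlapped one by at most 50 bp, and both had a median fold of 4.69.

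Around the TSS the unshared sites were spread more evenly than the shared ones. Their summits lay within 250 bp of the TSS in 23.9% of cases (23.3% to 24.6%), against 42.1% of shared sites (41.1% to 43.0%), and 1000 to 2000 bp away in 33.1% (32.4% to 33.9%), against 13.5% (12.8% to 14.1%). The median distance was 648 bp for unshared and 318 bp for shared sites. Upstream of the TSS lay 41.8% of unshared and 34.8% of shared summits. An annotated exon held 33.4% of unshared summits, an intron 42.4%, and 24.2% lay between genes, against 44.9%, 35.9% and 19.2% of shared summits.

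**Figure D2:**
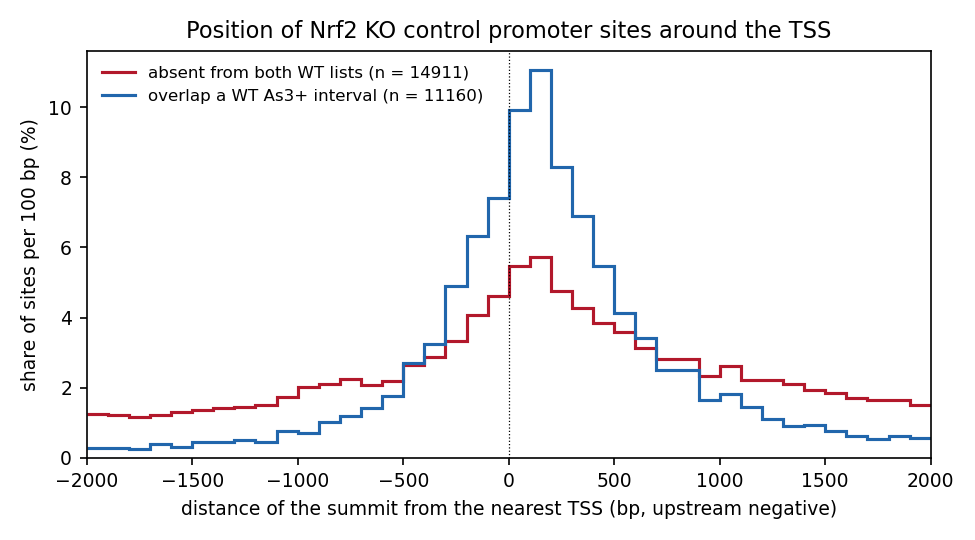
Share of sites (%) in steps of 100 bp against the distance of the summit from the nearest TSS (bp, upstream negative), for 14911 unshared (red) and 11160 shared (blue) promoter sites. The shared sites form a high peak just downstream of the TSS, and the unshared sites a lower and broader one, with medians of 318 and 648 bp.

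Gene starts of non-coding genes and pseudogenes took more of the unshared sites. The nearest TSS was that of a protein-coding gene for 58.3% of unshared sites (57.5% to 59.1%) and 76.1% of shared sites (75.3% to 76.9%), and that of a long non-coding RNA gene for 26.2% and 19.9%. Pseudogenes, which are inactive gene copies, accounted for 8.51% of unshared sites (8.07% to 8.97%) and 1.72% of shared sites (1.49% to 1.98%). For miRNA genes the shares were 2.76% and 1.32%, and for snRNA genes, which include many dispersed copies of spliceosomal RNA genes, 1.01% and 0.143%. Reads in such copies may match several places in the genome, and how reads with several matches were treated is not given in the sources used here.

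The 14911 sites had 11437 different nearest genes, of which 8748 had 1 site and 2689 had 2 or more. The largest number was 6 sites, at CCND1, NKX1-1 and the long non-coding RNA gene ENSG00000242590. CCND1 encodes cyclin D1, which drives cells from G1 into S phase, and its 6 sites had folds of 3.69 to 9.39 without any WT As3+ summit within 2 kb of the TSS. NKX1-1, a homeobox gene, had 6 sites with folds of 4.67 to 6.71, also without a WT As3+ summit. The 20 genes with 5 sites were of several kinds, with long non-coding RNA, miRNA and pseudogenes and coding genes such as DENND3 and TNS3. They also included the homeobox or paired box genes GBX1, HMX3 and PAX6 and the transcription factor gene EBF2. HMX3 and PAX6 each had 1 WT As3+ summit at the TSS, and GBX1 and EBF2 had 0. Genes with 5 or more sites were picked out after the values were seen.

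Sequence composition differed from that of shared sites. In windows of 200 bp around the summit, the median GC content was 62.5% (quartile from 57.0%) at unshared sites, 69.5% at shared sites and 63.5% at all protein-coding TSS. The ratio of observed to expected CG dinucleotides, which is low where CG has been lost and high in CpG islands, had a median of 0.547 at unshared sites, 0.782 at shared sites and 0.747 at protein-coding TSS. Promoter intervals of WT As3+ without any Nrf2 KO control interval, 3803 in number, had 63.0% and 0.613. Both unshared sets thus lay close to each other in GC content and below the shared sites.

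The CG run CGCGCG was found in 9.10% of unshared windows (8.64% to 9.57%), 19.6% of shared windows (18.8% to 20.3%) and 16.6% of TSS windows. The GC box CCCCGCCCC, a site of SP and KLF factors, was found in 5.42% of unshared (5.06% to 5.79%) and 13.2% of shared windows (12.5% to 13.8%), and in 15.8% of TSS windows. The ETS word CCGGAAG, typical of housekeeping promoters, was found in 3.63%, 6.38% and 10.2% in the same order. All were counted on both strands, and CGCGCG can overlap other CG-rich words.

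The difference in the CG run remained visible within the classes of GC content up to 70%. At 50% to 60% GC the CG run was found in 4.07% of unshared (3.51% to 4.68%) and 8.87% of shared windows (7.12% to 10.9%), and at 60% to 70% GC in 7.25% (6.65% to 7.89%) and 13.2% (12.2% to 14.1%). Above 70% GC the shares were 26.7% (24.9% to 28.5%) and 27.7% (26.5% to 28.9%), with overlapping intervals. Within 250 bp of the TSS the CG run was in 15.1% of unshared and 23.5% of shared windows, and 1000 to 2000 bp away in 4.72% and 14.1%. Shared sites had a higher median number of fragments in each of these classes, and the part of peak strength in these differences was not tested.

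Other words differed by fewer percentage points than the CG run, the GC box and the ETS word, or not clearly. The AP-1 word (TGACTCA or TGAGTCA) was found in 2.06% of unshared (1.84% to 2.30%) and 1.74% of shared windows (1.5% to 2.0%), and the antioxidant response core TGACNNNGC, at which Nrf2 acts, in 8.86% (8.41% to 9.33%) and 8.78% (8.26% to 9.32%). Both pairs of intervals overlap. The CCAAT word ATTGG was in 12.8% and 11.7%, and the TATA word TATAAA in 2.37% (2.13% to 2.62%) and 0.986% (0.811% to 1.19%). The MYC E-box CACGTG was in 4.08% and 4.97%. The CRE word TGACGTCA, the NRF1 word GCGCATGCG, the YY1 word AAGATGGCG and the octamer word ATGCAAAT were each in under 1% of unshared and shared windows. In this order the shares were 0.308%, 0.396%, 0.362% and 0.335% at unshared sites. At shared sites they were 0.573%, 0.797%, 0.95% and 0.224%. The CRE, NRF1 and YY1 words were thus less frequent at unshared sites, with intervals that do not overlap. For the octamer word the intervals overlap.

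The KLF word, the closest of the words to the known preference of KLF4, was found in 8.43% of unshared windows (7.99% to 8.89%), 8.29% of shared windows (7.78% to 8.82%) and 6.24% of protein-coding TSS windows (5.91% to 6.58%). Among the strongest unshared sites whose central bases held the word and touched no exon, 2 are shown, picked after the first sequences had been seen.
MGAT3: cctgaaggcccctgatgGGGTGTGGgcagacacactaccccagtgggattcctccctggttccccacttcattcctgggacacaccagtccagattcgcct
BMP2K: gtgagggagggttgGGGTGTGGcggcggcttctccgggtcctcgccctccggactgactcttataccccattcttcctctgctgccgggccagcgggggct
They lie at chr22:39458355-39458455 (MGAT3, plus strand) and chr4:78776754-78776854 (BMP2K, plus strand). In both the word reads on the other strand, as GGGTGTGG, and neither carries the tail described next, so the pair does not stand for all sites with the word.

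The KLF word followed by any base and GCTAA has the order of letters in the consensus of Alu elements, the most common interspersed repeat of the human genome. Over all sites it was present in 358 unshared windows, or 2.40% (2.16% to 2.66%), in 52 shared windows, or 0.466% (0.348% to 0.611%), and in 19 protein-coding TSS windows, or 0.0951%. Among WT As3+ promoter intervals without a Nrf2 KO control interval the share was 1.6% (1.23% to 2.06%). The KLF word without this tail was found in 6.05% of unshared (5.67% to 6.44%), 7.84% of shared (7.35% to 8.35%) and 6.15% of TSS windows (5.82% to 6.49%). Without the Alu-type tail the word was therefore less frequent at unshared than at shared sites and close to its share at protein-coding TSS. At 50% to 60% GC, the class that held 309 of the 358 windows, the word without the tail was in 6.04% of unshared and 5.34% of shared windows, with overlapping intervals. No repeat annotation was used here, and the match is one of letters.

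KLF4 itself had 1 unshared site and also a WT As3+ summit within 2 kb of its TSS. The site covered bases 107491455 to 107491736 of chromosome 9. Its summit was between genes, 1059 bp upstream of the gene start, with 7 fragments and a fold of 4.64, and the nearest WT As3+ interval lay 980 bp away. Its central sequence, at chr9:107491491-107491591 and written on the minus strand of KLF4, had 11 CG dinucleotides and none of the words.
KLF4: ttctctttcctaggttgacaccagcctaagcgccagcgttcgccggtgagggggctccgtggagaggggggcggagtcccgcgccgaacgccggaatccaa
NFE2L2 had 0 unshared sites at its TSS, where WT As3+ had a summit.

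Among the 19970 protein-coding genes, 7753 had an unshared site within 2 kb of the TSS, which is 38.8%. With a −log10 q of at least 5 this share was 11.7%, and with a Nrf2 KO control list as long as that of WT As3+ it was 20.1%. Of these, 3672 genes had no WT summit there (18.4% of all protein-coding genes, 17.9% to 18.9%) and 4081 had one as well (20.4%). A further 6024 genes (30.2%) had a WT summit and no unshared site, and 6193 (31.0%) had neither. Of the 13777 genes with an unshared site or a WT summit, 26.7% had the unshared site alone. These shares are the background for the 28 gene lists, whose genes were counted in the same 4 classes. With 1 library per condition there is no test between conditions, and the interval of a list covers counting error over its genes only. Neighbouring genes can count the same site, so the number of different sites is given for clustered families.

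In 17 of the 28 lists the share of genes with an unshared site and no WT summit was above 18.4%, and in 6 the whole interval was: voltage-gated potassium channels, HOX genes, replication histones, airway epithelial and keratinocyte structural genes, the SOX, FOX, PAX and TBX genes, and numbered zinc finger genes. The interval lay below 18.4% in 2 lists, olfactory receptors and chemokines and interleukins, in which 98.5% and 68.4% of the genes had neither kind of site. Counted over the genes with an unshared site or a WT summit, the interval lay above 26.7% in 6 lists: histones, potassium channels, HOX genes, airway epithelial genes, keratins and clustered protocadherins. The SOX, FOX, PAX and TBX genes (36.2%, 25.0% to 48.7%) and numbered zinc finger genes (30.5%, 25.9% to 35.3%) then included 26.7%, as did olfactory receptors (66.7% of 6 genes) and chemokines and interleukins (29.2%), and only chromatin enzymes lay below it. The lists were chosen with results of these data known.

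**Figure D3:**
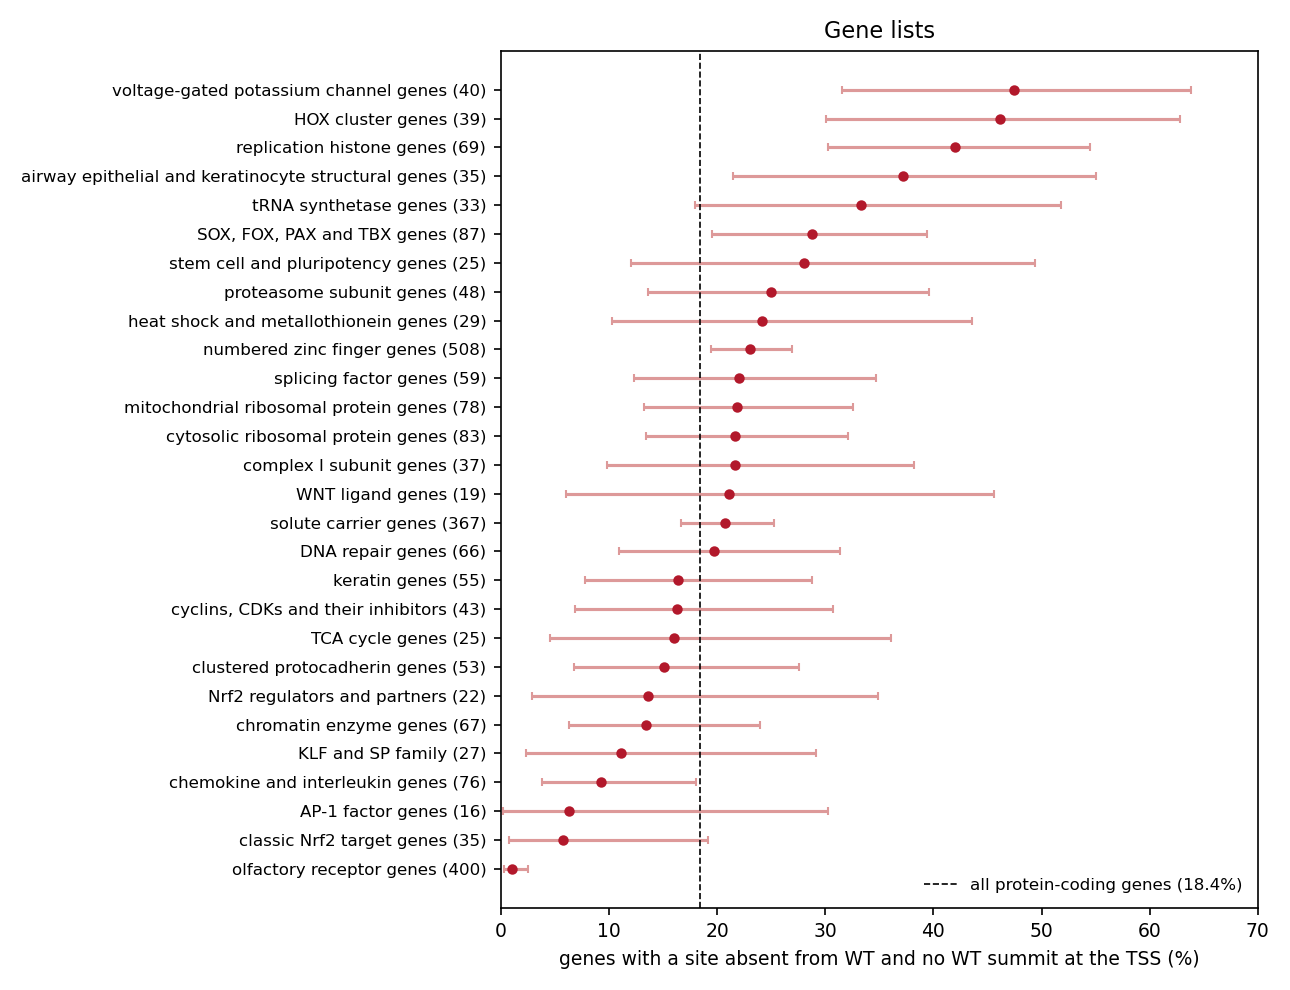
Share of the genes of each list (%) with an unshared site within 2 kb of the TSS and no WT summit there, with exact 95% intervals for counting error; the number of genes is in parentheses and the dashed line marks 18.4%, the share over all protein-coding genes. Potassium channels (47.5%), HOX genes (46.2%) and histones (42.0%) are highest and olfactory receptors (1.00%) lowest.

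Voltage-gated potassium channels shape the electrical activity of excitable cells. Of 40 genes, 19 (47.5%, 31.5% to 63.9%) had an unshared site and no WT summit, 7 had both, 5 a WT summit alone and 9 neither, with 42 different sites in all. KCNA1, KCNA3, KCNC1, KCND1, KCNH2 and KCNQ1 were among the 19.

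The HOX genes, which give body position along the axis and lie in 4 clusters, held 44 different sites at 30 of their 39 genes. An unshared site and no WT summit was found at 18 genes (46.2%, 30.1% to 62.8%). By cluster these were 5 of 11 HOXA genes, 4 of 10 HOXB genes, 3 of 9 HOXC genes and 6 of 9 HOXD genes. From 5 kb before the first to 5 kb after the last TSS, the HOXD cluster held 17 Nrf2 KO control intervals, of which 11 were unshared sites and 1 overlapped WT As3+, and 3 WT As3+ intervals. The corresponding numbers of Nrf2 KO control and WT As3+ intervals were 16 and 11 in HOXA, 36 and 16 in HOXB and 31 and 12 in HOXC. The whole lists held 76521 and 29866 intervals. Set beside these, only HOXD had clearly more Nrf2 KO control intervals per WT As3+ interval. HOXC was close to the whole lists, and HOXA and HOXB were below them. Neither the WT control nor the Nrf2 KO As3+ list had an interval in any of the 4 clusters.

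The HOXD sites were each weak, with 5 to 10 fragments and folds of 3.74 to 7.38. The strongest lay at HOXD11 on chromosome 2 (176103812 to 176104273). It had its summit between genes 270 bp before the TSS and reached 10 fragments. A second of like strength, with a fold of 7.34, lay 605 bp downstream of the HOXD9 TSS in an exon, 1095 bp from a WT As3+ interval. HOXD12, HOXD10, HOXD8, HOXD3 and HOXD1 had an unshared site and no WT summit as well, while HOXD13 and HOXD4 had neither.

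**Figure D4:**
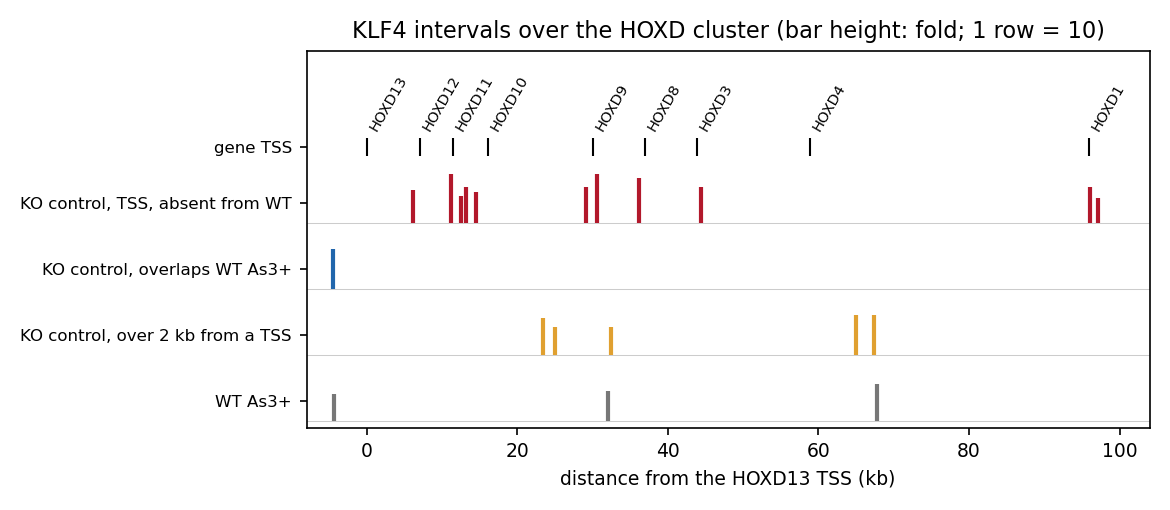
KLF4 intervals over the HOXD cluster by distance of the summit from the HOXD13 TSS (kb); bar height is the fold enrichment, with 10 to a row, in 4 rows for unshared sites (red), the Nrf2 KO control interval that overlaps WT As3+ (blue), Nrf2 KO control intervals over 2 kb from a TSS (yellow) and WT As3+ (grey). The 11 unshared sites lie along the cluster, against 3 WT As3+ intervals. Of the 4 HOX clusters, HOXD had the most Nrf2 KO control intervals per WT As3+ interval.

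Replication histone genes, which are expressed in S phase and lie close together, had an unshared site and no WT summit at 29 of 69 genes (42.0%, 30.2% to 54.5%), while 6 had both, 3 a WT summit alone and 31 neither. Because many of these genes stand back to back, the 35 genes with an unshared site shared 26 different sites. On chromosome 6 this was 22 of 55 genes and on the other chromosomes 7 of 14. By class it was 10 of 17 H2A genes, 9 of 18 H2B genes, 5 of 13 H3 genes, 5 of 15 H4 genes and 0 of 6 H1 genes. The strongest site had 16 fragments and a fold of 5.67 on chromosome 6 from 26156204 to 26156524, at H1-4 and H2BC5, 35 bp from a WT As3+ interval. Some histone genes of a class are closely similar copies, and reads from such copies could be placed in more than 1 gene. Of the 38 histone genes with an unshared site or a WT summit, 76.3% (59.8% to 88.6%) had the unshared site alone, against 26.7% over all genes.

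Among 35 structural and lineage genes of airway epithelium and keratinocytes, 13 (37.1%, 21.5% to 55.1%) had an unshared site and no WT summit, 11 had both, 4 a WT summit alone and 7 neither. The 13 include the adhesion genes CDH1, CLDN4, CLDN7, EPCAM, DSC2, PKP1 and PKP2, the keratins KRT7 and KRT17 and the lung lineage factors FOXA2 and NKX2-1. FOXA2, a forkhead factor of foregut epithelium, had 13 fragments and a fold of 9.34 on chromosome 20 (22586776 to 22587324) with its summit 1675 bp before its TSS, and the nearest WT As3+ interval was 18203 bp away.

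Developmental regulators of the SOX, FOX, PAX and TBX families had an unshared site and no WT summit at 25 of 87 genes (28.7%, 19.5% to 39.4%) and both at a further 30. TBX2, a T-box repressor, had the strongest of these sites, with 19 fragments and a fold of 9.88 on chromosome 17 from 61399026 to 61400048, 573 bp from a WT As3+ interval. Among 25 stem cell genes, 7 (28.0%, 12.1% to 49.4%) had an unshared site and no WT summit: ALDH1A3, EPCAM, LGR5, LIN28B, PRDM14, PROM1 and SOX2. ALDH1A3, an aldehyde dehydrogenase used to mark stem-like cells, had 12 fragments and a fold of 8.72, 1428 bp downstream of its TSS in an intron. SOX2, a pluripotency factor, had 11 fragments and a fold of 7.39 in its exon, 883 bp downstream of the TSS, with the nearest WT As3+ interval 799796 bp away. The interval of the stem cell list includes the background share.

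WNT ligands, which signal between cells through Frizzled receptors, had an unshared site and no WT summit at 4 of 19 genes (21.1%, 6.05% to 45.6%), namely WNT4, WNT5A, WNT11 and WNT16, and both at 8. WNT3A had a fold of 7.38 with 10 fragments, 149 bp from a WT As3+ interval, and WNT5A a fold of 7.28 with 11 fragments. Numbered zinc finger genes had an unshared site and no WT summit at 117 of 508 (23%, 19.4% to 26.9%). ZNF672 had 21 fragments and a fold of 8.39, and ZNF93 14 fragments and a fold of 10.1, both in introns within 400 bp of the TSS.

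Genes of the Nrf2 pathway had an unshared site without a WT summit at shares below the background of 18.4%, with intervals that include it. With or without a WT summit, an unshared site lay at 28.6% of the target genes and 54.5% of the regulators and partners. Over all protein-coding genes this was 38.8%. Of 35 classic Nrf2 target genes, 2 (5.71%, 0.700% to 19.2%) had an unshared site and no WT summit, the epoxide hydrolase gene EPHX1 and the glutathione conjugate exporter gene ABCC1, while 8 had both, 14 a WT summit alone and 11 neither. IDH1, a cytosolic source of NADPH, had 11 fragments and a fold of 6.40, 1772 bp upstream of the TSS and 909 bp from a WT As3+ interval. TXNRD1, the cytosolic thioredoxin reductase, had 12 fragments and a fold of 5.91, 39 bp from a WT As3+ interval. Among 22 regulators and partners of Nrf2, 3 (13.6%, 2.91% to 34.9%) had an unshared site and no WT summit, MAFK, RXRA and BTRC, and 9 had both. BTRC, the F-box protein of a ubiquitin ligase that targets Nrf2, had 16 fragments and a fold of 5.92. CREBBP, a histone acetyltransferase and coactivator of Nrf2, had 13 fragments and a fold of 7.0, with a WT As3+ interval 85 bp away.

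Transcription factors of the KLF and SP family had an unshared site and no WT summit at 3 of 27 genes (11.1%, 2.35% to 29.2%), KLF15, KLF8 and SP8, and a WT summit alone at 14. KLF15 had 13 fragments and a fold of 7.0, and SP8 8 fragments and a fold of 6.04. AP-1 factors had it at 1 of 16 genes (6.25%, 0.158% to 30.2%), BATF2, with both kinds at 7 further genes including JUN (15 fragments, fold 6.74) and JUND (11 fragments, fold 7.06). Heat shock and metallothionein genes, classic responders to arsenic, had it at 7 of 29 (24.1%, 10.3% to 43.5%), namely HSPA1B, HSPA5, HSPA6, MT1A, MT1B, MT1M and MT3. MT3 had 11 fragments and a fold of 7.39, and HSPA8, which also had a WT summit, 9 fragments and a fold of 6.63.

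Among lists of housekeeping and cell cycle genes every interval included the background share. They were 33.3% of 33 tRNA synthetase genes (18.0% to 51.8%), 25.0% of 48 proteasome subunits, 22% of 59 splicing factors, 21.8% of 78 mitochondrial and 21.7% of 83 cytosolic ribosomal proteins, 21.6% of 37 complex I subunits, 16% of 25 TCA cycle genes, 19.7% of 66 DNA repair genes, 16.3% of 43 cyclins, CDKs and their inhibitors and 13.4% of 67 chromatin enzymes. Examples with 12 or more fragments were the TCA cycle genes IDH3B (19 fragments, fold 6.96) and SDHB (16 fragments, fold 6.19), the immunoproteasome pair PSMB8 and PSMB9, which share 1 site of 15 fragments near their starts, and NDUFB6 of complex I (15 fragments, fold 7.12). The repair gene RAD50 had 19 fragments and a fold of 5.93 at a site that also lies 292 bp upstream of IL5. CCND1, named above, had the strongest site among the cyclins and CDKs. CDKN1C, a CDK inhibitor, had 11 fragments and a fold of 8.0, 23 bp downstream of its TSS in an exon. CDKN1C also had a WT summit at its TSS, and a WT As3+ interval lay 712 bp from the site. Among tRNA synthetases the strongest were WARS1 (12 fragments, fold 5.54) and the mitochondrial MARS2 (13 fragments, fold 5.10). Among ribosomal proteins they were RPL6 (13 fragments) and the mitochondrial MRPL15 (18 fragments, fold 7.46) and MRPS21 (14 fragments, fold 7.50). RPL6 also had a WT summit at its TSS, and a WT As3+ interval lay 156 bp from the site. The splicing gene LSM11 had 12 fragments and a fold of 5.6. KDM2B, a histone demethylase that binds CpG islands, had 14 fragments and a fold of 8.96. Of the chromatin enzymes with an unshared site or a WT summit, 15.0% (7.10% to 26.6%) had the unshared site alone, which is below 26.7%.

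Of the large gene families, olfactory receptors had almost no KLF4 site of any kind. Olfactory receptor genes had an unshared site and no WT summit at 4 of 400 (1.00%, 0.273% to 2.54%), led by OR6S1 and OR4D2 with 6 fragments each, and 394 had neither. Chemokines and interleukins had it at 7 of 76 (9.21%, 3.78% to 18.1%), keratins at 9 of 55 (16.4%), clustered protocadherins at 8 of 53 (15.1%) and solute carriers at 76 of 367 (20.7%). In each of the keratin and protocadherin lists 41 genes had neither kind of site, and of the others 64.3% of 14 keratin genes (35.1% to 87.2%) and 66.7% of 12 protocadherin genes (34.9% to 90.1%) had the unshared site alone. KRT82, a hair keratin, had 9 fragments and a fold of 6.49, and KRT5, the basal cell keratin, had 10 fragments and a fold of 6.40 beside a WT summit.

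The unshared sites were not spread evenly over the genome. Their share of promoter sites was 46.9% (44.4% to 49.5%) on chromosome 2 and 63.7% on chromosomes 10 (60.8% to 66.5%) and 20 (60.7% to 66.5%), and 61.0% on X (56.6% to 65.3%). In 279 windows of 5 Mb with at least 30 promoter sites the median share was 57.4% (quartiles 48.8% and 64.1%), and the range was 15.9% to 85.6%. The highest was on chromosome 11 from 70000001 to 75000000, with 77 unshared and 13 shared sites, and the lowest on chromosome 2 from 170000001 to 175000000, with 7 and 37. LIPT2 and LRRC51, 2 of the 15 strongest sites, lie in the chromosome 11 window. These windows were picked after their values were seen.

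In the chromosome 11 window the whole Nrf2 KO control list was long and the WT As3+ list short, with 371 against 28 intervals or 13.25 for 1, where the median window had 2.53 (quartiles 2.05 and 3.30). At the shared sites of the window the median log2 ratio of Nrf2 KO control over WT As3+ fragments was 0.47, the highest of all windows, and over the 279 windows its median was −0.28. It was above 0 in 8 windows. The background at unshared sites was at 0.749 in the window, equal to the median of all unshared sites. Of 59 protein-coding genes in the window, 25 (42.4%, 29.6% to 55.9%) had an unshared site and no WT summit. CCND1 lies just before the window on the same chromosome, and the steps of 1 Mb from 68 and from 69 Mb held 117 and 166 Nrf2 KO control intervals and 20 and 17 WT As3+ intervals. A change in copy number between the KO and WT cells, a library effect and a change in KLF4 occupancy cannot be told apart here, since the input library labelled for KLF4 was from untreated WT cells. Without this window 14834 unshared sites and a share of 57.1% remained.

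**Figure D5:**
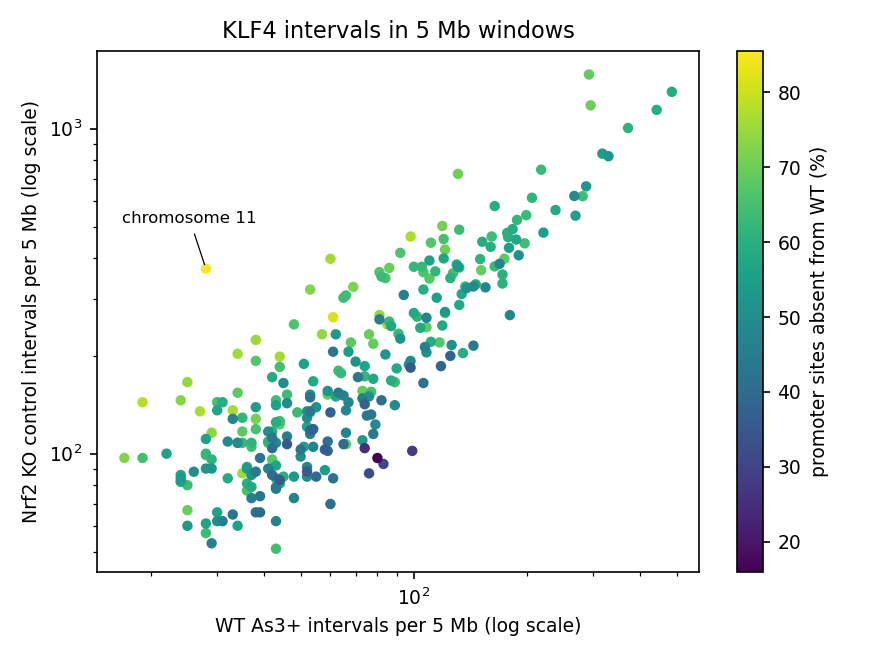
Number of Nrf2 KO control intervals against WT As3+ intervals in 279 windows of 5 Mb (both axes on a log scale), coloured by the share of promoter sites that were unshared (%). Most windows lie along 1 band, and the chromosome 11 window, with 371 against 28 intervals, lies above it.

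The Nrf2 KO As3+ list, with 130 intervals, held almost none of these sites. A list of this length could overlap only few of them, so the count does not show a loss of KLF4 after As3+. Of the 14911 unshared sites, 1 overlapped a Nrf2 KO As3+ interval, while 32 of the 11160 shared sites did, and the Nrf2 KO As3+ list had 50 intervals at gene starts in all. The site lay on chromosome 19 from 46232157 to 46232551, between genes, 1893 bp upstream of the long non-coding RNA gene ENSG00000269745 and 2539 bp from the TSS of IGFL1, which encodes a secreted IGF-like protein. It had 10 fragments and a fold of 6.99 in the Nrf2 KO control library, and the overlapping Nrf2 KO As3+ interval had 14 fragments over a background of 3.74, a fold of 3.16, with a −log10 q of 1.01. The lowest background of the Nrf2 KO As3+ library was 1.64, its smallest peak had 10 fragments and its lowest listed fold was 1.63.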

How the data were processed

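KLF4 ChIP-seq peak lists of 4 BEAS-2B libraries, 1 per condition, were used. BWA was the aligner of the authors, with GRCh38/hg38 as the genome, and the processing notes name bcl2fastq 2.17. The program that called peaks is not given in the sources used here. Lists were called for each library separately. The fold in the deposited lists fits a ratio of fragments to local background at the summit after 1 is added to each of them. The −log10 p and −log10 q in the deposited lists belong to the same summit, and the score that the authors deposited equals the −log10 q multiplied by 10 and cut to a whole number. Other libraries of the series were not used here.

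Fragments and background at each summit were obtained by solving fold and p as a Poisson tail, which left differences in −log10 p of no more than 0.000405. Genes came from GENCODE 44 (62062 on chromosomes 1 to 22 and X), and distances refer to the gene start. An overlap was at least 1 bp. Words were searched on both strands in 200 bp around the summit. The fragment numbers, the rule for the sites, the TSS distance, the gene classes and the word search were tested on simulated data and recovered 100% of the planted answers, and the other measures were not. Members, gene lists and words were chosen with earlier results of these data known. Named genes are those of the 15 strongest sites by −log10 p, the 2 strongest of each of the 28 lists (some are given by their list's count alone), the site in common with Nrf2 KO As3+, NFE2L2 and KLF4. Some items that these rules name are not reported here. Other genes of a list are named as examples of its count. Sequences were taken from GRCh38 in order of −log10 p, and sites on chromosome 8 were passed over. Genes with 5 or more sites, the sequences of shared sites, of sites with the KLF word and of KLF4, the 5 Mb windows and the KLF word followed by GCTAA were added after values were seen. Of the Nrf2 regulators, 22 of 24 entries matched a gene symbol. Read totals were not used here, so depth is known only through fragments and background at the summits. Tools were Python 3.11.15 with numpy 2.4.6, pandas 2.3.3, scipy 1.17.1, matplotlib 3.10.9 and pysam 0.24.0, and samtools 1.23.1. Alternatives changed the q threshold, the overlap, the TSS window and set, the word window and the length of the list.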

Additional observations from a re-analysis of the deposited data

How the results depend on the processing

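With a −log10 q of at least 5 there were 2967 unshared sites, 33.1% of promoter intervals, with a WT As3+ summit at the same TSS for 41.7%, a site at 11.7% of protein-coding genes, and medians of 6.32 fold, 457 bp from the TSS and 66.5% GC, and the KLF word in 7.82%. Where a WT interval within 500 bp counted as shared, the values were 45.2%, 25.4%, 29.1%, 678 bp and 62.0% for the share, the same TSS, the genes, the distance and GC. Where 50% of the interval had to be covered they were 69.7%, 51.2%, 47.6%, 581 bp and 63.5%, with a fold of 4.73 and 4 sites in common with Nrf2 KO As3+. Within 1 kb of a TSS they were 50.8%, 29.6%, 29.8%, 376 bp and 63.5%, with the KLF word in 7.62%. With protein-coding TSS there were 9695 sites, 50.1%, 50.1% with a WT summit at the TSS and 63.5% GC, and under these last 2 settings 0 sites were in common with Nrf2 KO As3+. With every transcript start there were 22742 sites, 63.2%, 35.6%, 49.8% of genes, 4.67 fold and 521 bp. With as many Nrf2 KO control intervals as WT As3+ had (29866, chosen after seeing the data) there were 5853 sites, 42.2%, 20.1% of genes, 5.71 fold, 536 bp, 65.0% GC and the KLF word in 7.94%. In windows of 100 and 400 bp the KLF word was in 4.56% and 15.2%. GC content was lower at unshared than at shared sites in 7 of 7 settings and the CG run in 9 of 9, while the sign of the KLF word difference was kept in 3 of 9. The number of lists above the share of all genes ranged from 14 to 17. No paired analysis was possible because there is 1 library per condition. No difference between conditions has a replicate check.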
